A study of Mus musculus with 8 samples.

Results

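The genes described here are 36 genes of fatty acid handling, chosen by symbol from a list of the peroxisome proliferator-activated receptors (PPARs), their partner receptor and genes of fatty acid transport, storage, lipolysis, oxidation and synthesis. The list was chosen with earlier results of these data known. All 36 were among the 51886 gene symbols of the deposited table, and 35 of them were among the 14472 genes with 1 TPM or more in 4 or more of the 8 libraries (TPM, transcripts scaled for their length and for the total of a library). The missing gene is Cidec. Plin5 reached 1 TPM in 4 WT and 2 PGR-A KO libraries, so it passed the filter through the group where it was higher.

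The libraries came from granulosa cells, the somatic cells that line the ovarian follicle, of mice of the PGR-A KO strain, which lacks the A isoform of the progesterone receptor. There were 4 libraries from KO animals and 4 from WT animals. Both groups received the same hormones at an age of 21 to 27 days. An injection of 5 IU eCG, which drives follicle growth, was followed 46 h later by 5 IU hCG, which sets off ovulation, and cells were collected 8 h after that. Each library pooled the cells of 2 to 3 mice, so a p-value measures the spread between pools. The labels give no cell-type restriction of the deletion and no batch.

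PPARs are nuclear receptors that bind fatty acids and their derivatives and act on DNA as pairs with a retinoid X receptor. Pparg is best known as the regulator of fat storage in adipocytes, Ppara as a regulator of fatty acid oxidation in liver, and Ppard as a widely expressed relative. In the ovary, granulosa cells express Pparg, and fatty acids serve the follicle as fuel, as membrane material and as esters that store cholesterol for steroid synthesis.

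Promoters are shown for the genes on which the comparisons below turn most (Pdk4, Plin3, Plin2 and Ppara) and for the gene pair Hadha and Hadhb, which lie back to back. Each window runs from 250 bases before to 50 bases after a transcription start, from RefSeq on GRCm38.p6, printed 5′ to 3′ on the gene's strand. Capitals mark 3 short motifs on either strand: AGGTCA (the core hexamer of nuclear receptor sites), GGGCGG (a GC box) and CCAAT.
Pdk4 promoter (chr6:5496229-5496528, minus strand): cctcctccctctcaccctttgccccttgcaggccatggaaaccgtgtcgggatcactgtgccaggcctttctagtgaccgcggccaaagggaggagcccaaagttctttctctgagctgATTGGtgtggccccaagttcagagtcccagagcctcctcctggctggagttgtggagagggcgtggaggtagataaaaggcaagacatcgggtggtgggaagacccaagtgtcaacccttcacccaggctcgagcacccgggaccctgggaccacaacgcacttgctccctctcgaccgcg
Plin3 promoter (chr17:56290462-56290761, minus strand): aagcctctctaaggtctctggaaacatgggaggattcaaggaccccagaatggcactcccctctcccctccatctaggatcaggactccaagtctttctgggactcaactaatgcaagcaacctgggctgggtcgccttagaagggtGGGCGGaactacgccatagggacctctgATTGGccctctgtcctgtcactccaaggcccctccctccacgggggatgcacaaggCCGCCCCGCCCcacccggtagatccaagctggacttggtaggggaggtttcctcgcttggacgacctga
Plin2 promoter (chr4:86670010-86670309, minus strand): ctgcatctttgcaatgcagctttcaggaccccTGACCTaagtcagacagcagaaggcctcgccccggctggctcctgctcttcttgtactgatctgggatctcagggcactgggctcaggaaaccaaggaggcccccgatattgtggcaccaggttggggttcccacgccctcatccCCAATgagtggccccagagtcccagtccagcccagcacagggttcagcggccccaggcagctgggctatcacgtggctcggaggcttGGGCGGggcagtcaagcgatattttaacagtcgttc
Ppara promoter (chr15:85735526-85735825, plus strand): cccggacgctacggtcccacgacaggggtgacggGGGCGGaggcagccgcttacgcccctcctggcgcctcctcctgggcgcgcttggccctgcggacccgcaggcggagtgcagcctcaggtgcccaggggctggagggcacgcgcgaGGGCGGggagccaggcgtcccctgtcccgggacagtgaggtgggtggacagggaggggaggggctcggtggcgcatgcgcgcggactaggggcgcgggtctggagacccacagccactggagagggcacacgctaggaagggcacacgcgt
Hadha promoter (chr5:30154931-30155230, minus strand): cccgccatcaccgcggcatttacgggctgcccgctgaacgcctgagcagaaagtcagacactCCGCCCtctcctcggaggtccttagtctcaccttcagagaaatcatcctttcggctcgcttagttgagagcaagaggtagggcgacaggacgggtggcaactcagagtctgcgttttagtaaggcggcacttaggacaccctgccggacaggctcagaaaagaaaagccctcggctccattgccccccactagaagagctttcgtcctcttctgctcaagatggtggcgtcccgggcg

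Of the 36 genes, 28 had an entry in the promoter table, with 36 windows between them. The full PPAR and retinoid X receptor element, searched as AGGTCA followed by any base and a second AGGTCA, was in 0 of the 36 windows and in 0.0396% of all 32851 windows of the same length. The hexamer AGGTCA, which is contained in the full element, was in 10 of the 36 windows (27.8%), against 16.3% of all windows. These belong to Acadm, Acadvl, Cd36, Cpt1a, Plin2, Plin5, Pparg and Rxra. Of the windows printed above, Plin2 holds 1 AGGTCA and the others hold 0. GGGCGG was in 23 windows (63.9%, against 35.7% of all windows) and CCAAT in 14 (38.9%, against 37.4%). Both strands were searched,. These are matches of letters in a short window and say nothing about binding.

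The 36 genes lie on 13 chromosomes (GENCODE M21, mm10). Some are neighbours. Hadha and Hadhb on chromosome 5 are transcribed away from each other with 85 bases between them, which is why the Hadha window is shown. Scd2 and Scd1 on chromosome 19 lie 87590 bases apart, Fabp5 and Fabp4 on chromosome 3 lie 187480 bases apart, and Plin4, Plin5 and Plin3 follow each other on chromosome 17.

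Correlations between libraries in log2(TPM + 1) ran from 0.970 to 0.991. Along the first principal component of all tested genes (34.9% of the variance), PGR-A KO replicate 3 lay at -25.8, on the side of most WT libraries, and the other KO libraries lay between 10.6 and 20.7. WT replicate 1 lay at 21.2, on the side of most KO libraries, and the other WT libraries between -20.9 and -3.55. The comparisons below are therefore given with all 8 libraries and, where it matters, without these libraries, which were picked by their values. Transcripts of Pgr, the targeted gene, stood at 2.96 ± 0.658 TPM in KO and 1.15 ± 0.395 TPM in WT (SD, n = 4 each); the value sums both isoforms and does not check the loss of PGR-A. In bulk libraries, fewer cells of a type and less RNA per cell cannot be told apart.

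No fatty acid gene passed the test of the genotypes over all genes. The test was limma on log2(TPM + 1), and a difference is KO minus WT on that scale, so a negative value means lower in KO. By limma's Benjamini-Hochberg adjusted p, 0 of 35 genes passed 0.05, against 0.0138% of all genes tested (2 genes), and the lowest adjusted p was 0.752 (Pdk4). At an unadjusted limma p under 0.05 there were 2 of 35 genes, Pdk4 and Plin3, both lower in KO, against 6.31% of all genes (0.974% higher and 5.33% lower). Groups that did not overlap were found in 2 of 35 genes, Plin3 and Ppara, both lower in KO, against 3.42% of all genes (2.82% lower and 0.601% higher). Rescaling changed which genes these were: with trimmed-mean factors or quantile normalization they were Ppara (lower in KO) and Lipe (higher in KO), and without mitochondrially encoded genes in the total Lipe alone. These counts lie near the background. Means were higher in KO for 9 genes and lower for 26, against 42.6% higher among all genes. The median difference of the 35 genes was -0.071, beside -0.023 over all genes. With trimmed-mean scaling of the libraries the split was 14 higher and 21 lower, and 46% of all genes were lower. Leaving out KO replicate 3 gave 18 higher and 17 lower (54.7% of all genes lower). Leaving out WT replicate 1 gave 17 higher and 18 lower (53.9% of all genes lower).

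**Figure D1:**
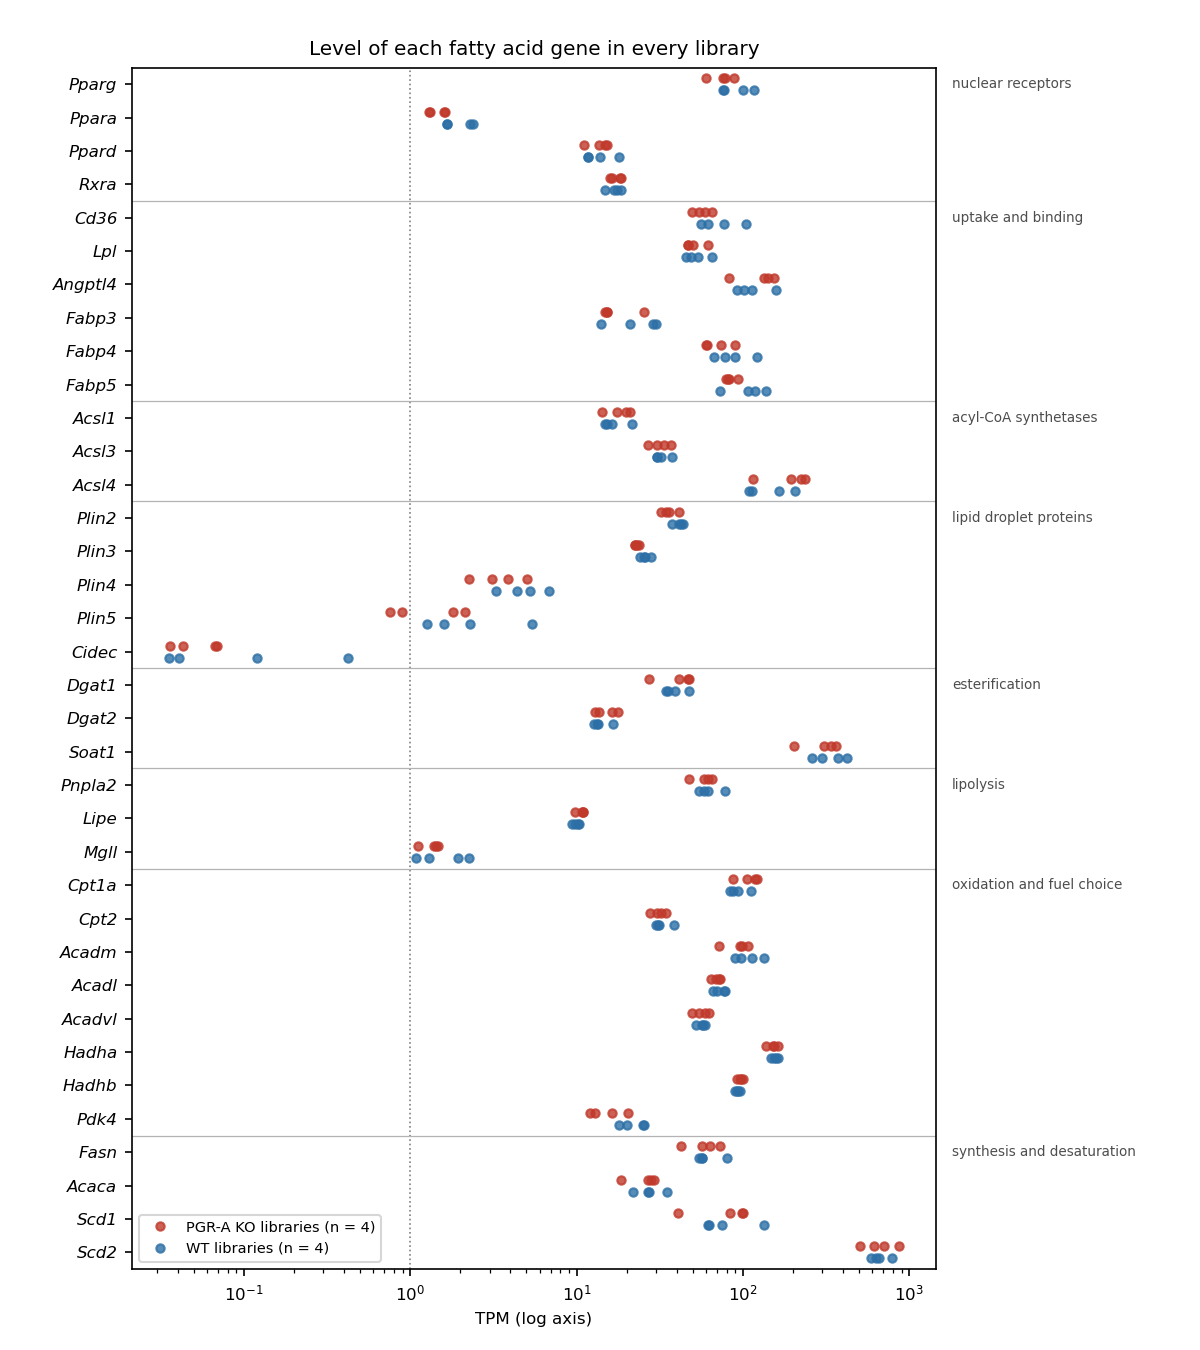
TPM of each of the 36 genes in every library on a log axis, with the 4 PGR-A KO libraries (red) drawn above the 4 WT libraries (blue) and the dotted line at 1 TPM. Levels run from Cidec, under 1 TPM in every library, to Scd2, at 506 to 873 TPM in KO and 590 to 785 TPM in WT.

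Among the nuclear receptors, Pparg was by far the most abundant. It held 83.2% ± 1.00 of the summed TPM of the 3 PPAR genes in KO and 85.2% ± 2.37 in WT (SD, n = 4 each). Ppard, the second, held 15.1% ± 0.703 in KO and 12.9% ± 1.92 in WT (SD, n = 4 each). The share of Ppara was 1.26 to 2.22% in KO libraries and 1.22 to 2.63% in WT libraries.

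Pparg (chromosome 6, 115360951 to 115490399, plus strand) stood at 88.0, 78.2, 59.6 and 76.3 TPM in KO replicates 1 to 4 and at 116, 100, 76.3 and 76.8 TPM in WT replicates 1 to 4. The highest WT pools were replicates 1 and 2, the lowest of all was KO replicate 3, and the groups overlapped. Its means were 75.5 ± 11.8 TPM in KO and 92.4 ± 19.3 TPM in WT (SD, n = 4 each), a difference of -0.28 (SE 0.16, 95% interval -0.64 to 0.09) with an exact permutation p of 0.229. With KO replicate 3 and WT replicate 1 left out, the difference was -0.05; without KO replicate 3 alone it was -0.17 and without WT replicate 1 alone -0.161. Gene-level values do not separate the transcripts that encode PPARG1 and PPARG2.

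Ppara (chromosome 15, 85734983 to 85802819, plus strand), whose promoter window above holds 2 GC boxes, was near the filter on low values. Its levels were 1.31, 1.63, 1.60 and 1.30 TPM in the KO libraries and 1.66, 1.67, 2.30 and 2.39 TPM in the WT libraries. Every WT pool was above every KO pool, though WT replicates 1 and 2 were only just above the highest KO pools; without mitochondrially encoded genes in the total the groups overlapped. The difference was -0.28 (SE 0.13, limma adjusted p = 0.783). The exact permutation p was 0.0286, which is the lowest possible with 70 assignments of 8 libraries. TPM keeps no sequencing depth, so the counting error at this level is unknown.

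Ppard and the partner receptor Rxra were close between genotypes. Ppard averaged 13.7 ± 1.90 TPM in KO and 13.8 ± 2.92 TPM in WT (SD, n = 4 each), with a 95% interval of the difference from -0.34 to 0.33. Rxra, the common partner of the PPARs, averaged 17.3 ± 1.32 TPM in KO and 16.9 ± 1.45 TPM in WT (SD, n = 4 each), with an interval from -0.17 to 0.23. Of 9 tested partners and coregulators outside the list, 3 had higher and 6 lower means in KO and 0 passed. The most abundant of them was the corepressor gene Ncor1, at 99.7 ± 6.57 TPM in KO and 103 ± 8.60 TPM in WT (SD, n = 4 each).

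Genes of uptake and binding had mostly lower means in KO. Of 6, 5 were lower and 1 higher, with a median difference of -0.325, and 0 passed. Their summed level was 389 to 437 TPM in KO libraries and 424 to 525 TPM in WT libraries.

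Cd36, a membrane protein that takes up long-chain fatty acids and oxidised lipoproteins, had 54.7, 49.2, 65.2 and 59.1 TPM in KO and 55.9, 105, 76.7 and 62.0 TPM in WT. WT replicate 2 was far above the others, and WT replicate 1 lay within the range of the KO libraries. The difference was -0.35 (SE 0.18, limma adjusted p = 0.796, exact permutation p = 0.171). Without WT replicate 2 it was -0.177, and with any 1 library left out it ran from there to -0.477 (without WT replicate 1).

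The cytosolic fatty acid-binding proteins, which carry fatty acids inside the cell, include Fabp3 (first known from heart), Fabp4 (from adipocytes and macrophages) and Fabp5 (from epidermis). Fabp5 had 78.7, 82.3, 93.5 and 81.6 TPM in KO and 72.9, 138, 118 and 108 TPM in WT. Fabp3 had 14.8, 15.2, 25.6 and 15.2 TPM in KO and 14.0, 30.0, 29.0 and 21.1 TPM in WT. Both genes had the same order of libraries at the extremes: within KO replicate 3 was highest, within WT replicate 2 was highest and replicate 1 lowest, and WT replicate 1 was the lowest library of all 8. The differences were -0.34 (SE 0.17) for Fabp5 and -0.37 (SE 0.25) for Fabp3, with limma adjusted p of 0.795 and 0.839. With KO replicate 3 and WT replicate 1 left out, which were picked for lying beside the opposite genotype, these became -0.57 for Fabp5 and -0.77 for Fabp3. Without WT replicate 2 alone the differences were -0.217 for Fabp5 and -0.24 for Fabp3.

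Fabp4 followed another order. It had 89.3, 60.9, 60.1 and 73.7 TPM in KO and 122, 89.4, 67.5 and 77.9 TPM in WT. Here WT replicate 1 was the highest library and KO replicate 3 the lowest. The difference was -0.31 (SE 0.19, exact permutation p = 0.229). It was -0.148 without WT replicate 1 and -0.08 without KO replicate 3 as well. Thus within the 3 binding proteins the share of Fabp4 ran from 33.5 to 48.9% in KO and from 31.4 to 58.5% in WT.

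Lpl, the lipase that releases fatty acids from lipoproteins, and Angptl4, a secreted inhibitor of that lipase, showed no difference between genotypes beyond their spread. Lpl averaged 51.4 ± 7.30 TPM in KO and 53.3 ± 8.54 TPM in WT (SD, n = 4 each). Angptl4 had 153, 133, 82.5 and 142 TPM in KO and 159, 114, 91.8 and 101 TPM in WT. KO replicate 3 was the lowest library for Angptl4 and WT replicate 1 the highest, against the order of Fabp3 and Fabp5. The difference for Angptl4 was 0.12 (95% interval -0.37 to 0.61).

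Cd36, Fabp4, Fabp5 and Lpl are also expressed by macrophages, capillary endothelium or adipocytes, so the markers of these cells are given here. Macrophage markers summed to 54.5 to 113 TPM in KO and 84.3 to 114 TPM in WT, with lower means in KO for 7 of 8 tested markers, and all 11 were above 0 in every library. Within KO the highest macrophage sum, 113 TPM, was that of replicate 3. It was also the highest KO library for Cd36, Fabp3, Fabp5, Lpl, Plin2, Plin3 and Pdk4. The same library had the highest KO sums of theca, smooth muscle, oocyte and erythroid markers too. Its sums of endothelial, adipocyte and surface epithelium markers were the lowest in KO. Fabp4 was lowest in that library, at 60.1 TPM. Within WT the highest macrophage sum, 114 TPM, was that of replicate 4. It was not the highest WT library for any of these fatty acid genes. Lyz2, the most abundant, had 42.9 ± 18.4 TPM in KO and 57.8 ± 10.7 TPM in WT (SD, n = 4 each). Endothelial markers summed to 26.6 to 46.4 TPM in KO and 33.8 to 64.7 TPM in WT, with lower means for 6 of 8 tested markers; Cdh5, the most abundant, had 10.7 ± 3.61 TPM in KO and 16.6 ± 6.48 TPM in WT (SD, n = 4 each). Their part in the levels of the fatty acid genes was not tested.

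Adipocyte markers were low. Of 8, 7 were below the filter on low values, Lep was listed at 0 in every library, and Adipoq was at most 0.162 TPM in KO and 0.364 TPM in WT. Their sum was 4.39 to 6.67 TPM in KO and 3.67 to 14.9 TPM in WT, highest in WT replicate 1, where Fabp4 was also highest. WT replicate 2 had the lowest sum but Fabp4 at 89.4 TPM, and WT replicate 4 had a sum of 9.06 TPM with Fabp4 at 77.9 TPM. Retn was the only one above 1 TPM in every library, at 1.98 to 4.83 TPM in KO and 2.01 to 4.42 TPM in WT. Cidea reached at most 0.528 TPM in KO libraries, and stood at 3.82 and 4.08 TPM in WT replicates 1 and 4; Adig reached at most 0.836 TPM in KO, and stood at 2.59 and 2.09 TPM in those WT replicates. The 10 granulosa markers were all present, at a sum of 5370 to 6730 TPM in KO and 5580 to 9120 TPM in WT, led by Inha (3550 ± 515 TPM in KO and 4060 ± 549 TPM in WT, SD, n = 4 each). All 10 had lower means in KO, and 0 passed.

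Markers of the remaining cell types had 0 genes past the adjusted threshold. Oocyte markers summed to 758 to 1360 TPM in KO and 550 to 1040 TPM in WT, with higher means in KO for 10 of 10. Erythroid markers summed to 3660 to 6320 TPM in KO and 1730 to 11400 TPM in WT. Theca markers summed to 114 to 123 TPM in KO and 110 to 265 TPM in WT, smooth muscle markers to 58.1 to 88.3 TPM in KO and 58.5 to 99.1 TPM in WT, and surface epithelium markers to 79.7 to 84.0 TPM in KO and 75.4 to 109 TPM in WT. The part of these cells in the levels of the fatty acid genes was not tested.

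**Figure D2:**
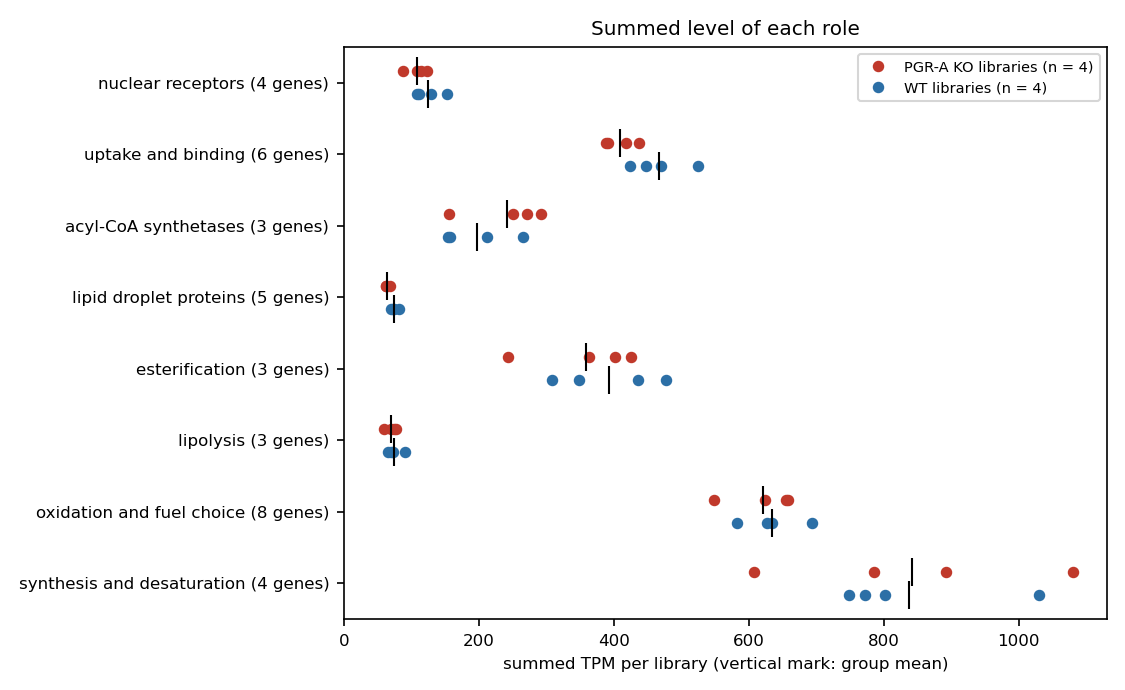
Summed TPM per library for each role, with PGR-A KO libraries (red) above WT libraries (blue) and a vertical mark at each group mean. In TPM as deposited, the sums of lipid droplet proteins are 61.9 to 68.0 TPM in KO and 69.9 to 82.4 TPM in WT. The other sums overlap between genotypes. Sums were not computed after rescaling, and Plin3, a lipid droplet gene, overlaps after each rescaling.

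The acyl-CoA synthetases attach coenzyme A to fatty acids before any further use. Of the 3 on the list, Acsl4, an isoform that prefers arachidonic acid, was the most abundant. Acsbg1, a synthetase outside the list that is described below, was more abundant than Acsl4. Acsl4 made up 78.7% ± 3.96 of the 3 synthetases in KO and 74.2% ± 3.75 in WT (SD, n = 4 each). It had 237, 194, 115 and 223 TPM in KO and 206, 164, 109 and 113 TPM in WT. KO replicate 3 lay with WT replicates 3 and 4 at the low end, and WT replicate 1 lay with the KO libraries at the high end. The difference of 0.37 (SE 0.27, limma adjusted p = 0.847) was the largest in favour of KO among the 35 genes and became 0.78 with those 2 libraries left out. Acsl1 averaged 18.1 ± 2.97 TPM in KO and 17.0 ± 3.09 TPM in WT, and Acsl3 32.0 ± 4.31 TPM in KO and 32.6 ± 3.30 TPM in WT (SD, n = 4 each).

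All 4 tested lipid droplet proteins had lower means in KO, against 57.4% of all genes, and 0 passed over all genes. Plin5, 1 of the 4, passed the filter on low values through the WT group, where it was higher. Plin2 and Plin3 coat lipid droplets in most cell types, and Plin4 and Plin5 do so in fat-storing or oxidative tissues. Plin3 (chromosome 17, 56277476 to 56292873, minus strand) had 22.4, 22.4, 23.7 and 23.1 TPM in KO and 24.2, 27.9, 25.6 and 25.8 TPM in WT. The KO pools lay close together and all below the lowest WT pool in TPM as deposited. With trimmed-mean factors, with quantile normalization or without mitochondrially encoded genes in the total, the groups overlapped. The difference was -0.17 (SE 0.07, 95% interval -0.32 to -0.01), with an unadjusted limma p of 0.0358, an adjusted p of 0.783 and an exact permutation p of 0.0286. Its unadjusted p passed 0.05 in 9 of 19 alternatives, with differences from -0.22 to -0.13.

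Plin2 (chromosome 4, 86648386 to 86670060, minus strand) is the most abundant of the family, with 56.3% ± 3.43 of the 4 perilipins in KO and 55.4% ± 3.36 in WT (SD, n = 4 each). It had 36, 32.3, 41.2 and 34.7 TPM in KO and 37.7, 42.2, 43.8 and 41.4 TPM in WT. Only KO replicate 3 reached into the range of the WT libraries. The difference was -0.19 (SE 0.09, limma adjusted p = 0.783, exact permutation p = 0.0571).

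Plin4 and Plin5, whose genes are 1797 bases apart, were low, and their libraries lay far apart within each group. Plin4 had 2.25 to 5.01 TPM in KO and 3.27 to 6.80 TPM in WT. Plin5 had 1.82, 2.14, 0.757 and 0.889 TPM in KO and 2.29, 5.42, 1.27 and 1.59 TPM in WT, so its highest library held 7.17 times the lowest, the widest range of the 35 tested genes. Both were highest in WT replicate 2 and lowest in KO replicate 3. Cidec, a protein that fuses droplets in adipocytes, was at most 0.0688 TPM in KO and 0.424 TPM in WT.

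Enzymes that esterify fatty acids were led by Soat1, which makes cholesteryl esters from cholesterol and acyl-CoA, at percentile 97.5 of all tested genes by level. Soat1 had 362, 337, 203 and 308 TPM in KO and 372, 425, 300 and 260 TPM in WT. The lowest library was again KO replicate 3 and the highest WT replicate 2, with a difference of -0.17 (95% interval -0.63 to 0.29). Of the enzymes of the last step to triglyceride, Dgat1 held 72.5% ± 3.27 of the pair in KO and 73.6% ± 1.01 in WT (SD, n = 4 each). Dgat1 averaged 40.7 ± 9.39 TPM in KO and 39.1 ± 6.06 TPM in WT, and Dgat2 15.1 ± 2.25 TPM in KO and 14.0 ± 1.67 TPM in WT (SD, n = 4 each).

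Lipolysis runs through Pnpla2, Lipe and Mgll, which remove the fatty acids of a triglyceride one after another. Pnpla2 was the most abundant, at 58.1 ± 7.77 TPM in KO and 63.0 ± 10.4 TPM in WT (SD, n = 4 each). Lipe, which in steroid-making cells also splits cholesteryl esters, had 10.9, 10.9, 10.8 and 9.79 TPM in KO and 10.4, 9.76, 10.2 and 9.45 TPM in WT. The groups overlapped through KO replicate 4; they did not overlap without that library or after any of the 3 rescalings. The difference was 0.08 (95% interval -0.09 to 0.25, exact permutation p = 0.0857). Mgll was near the filter, at 1.35 ± 0.167 TPM in KO and 1.64 ± 0.543 TPM in WT (SD, n = 4 each).

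Among genes of oxidation and fuel choice, Pdk4 had the lowest p of the 35 genes. Pdk4 encodes a kinase that switches off pyruvate dehydrogenase and so favours fatty acids over glucose as fuel; it is a known PPAR target in muscle and liver. Pdk4 (chromosome 6, 5483351 to 5496309, minus strand) had 13, 12.1, 20.4 and 16.4 TPM in KO and 18.1, 25.2, 25.3 and 20.1 TPM in WT. The groups overlapped only because KO replicate 3 lay above WT replicates 1 and 4. Its means were 15.5 ± 3.75 TPM in KO and 22.2 ± 3.68 TPM in WT (SD, n = 4 each), a ratio of 0.698. The difference was -0.51 (SE 0.17, 95% interval -0.89 to -0.12), with an unadjusted limma p of 0.016, an adjusted p of 0.752 and an exact permutation p of 0.0857. In 19 alternatives the difference stayed between -0.73 and -0.41, with an unadjusted p of at most 0.048.

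**Figure D3:**
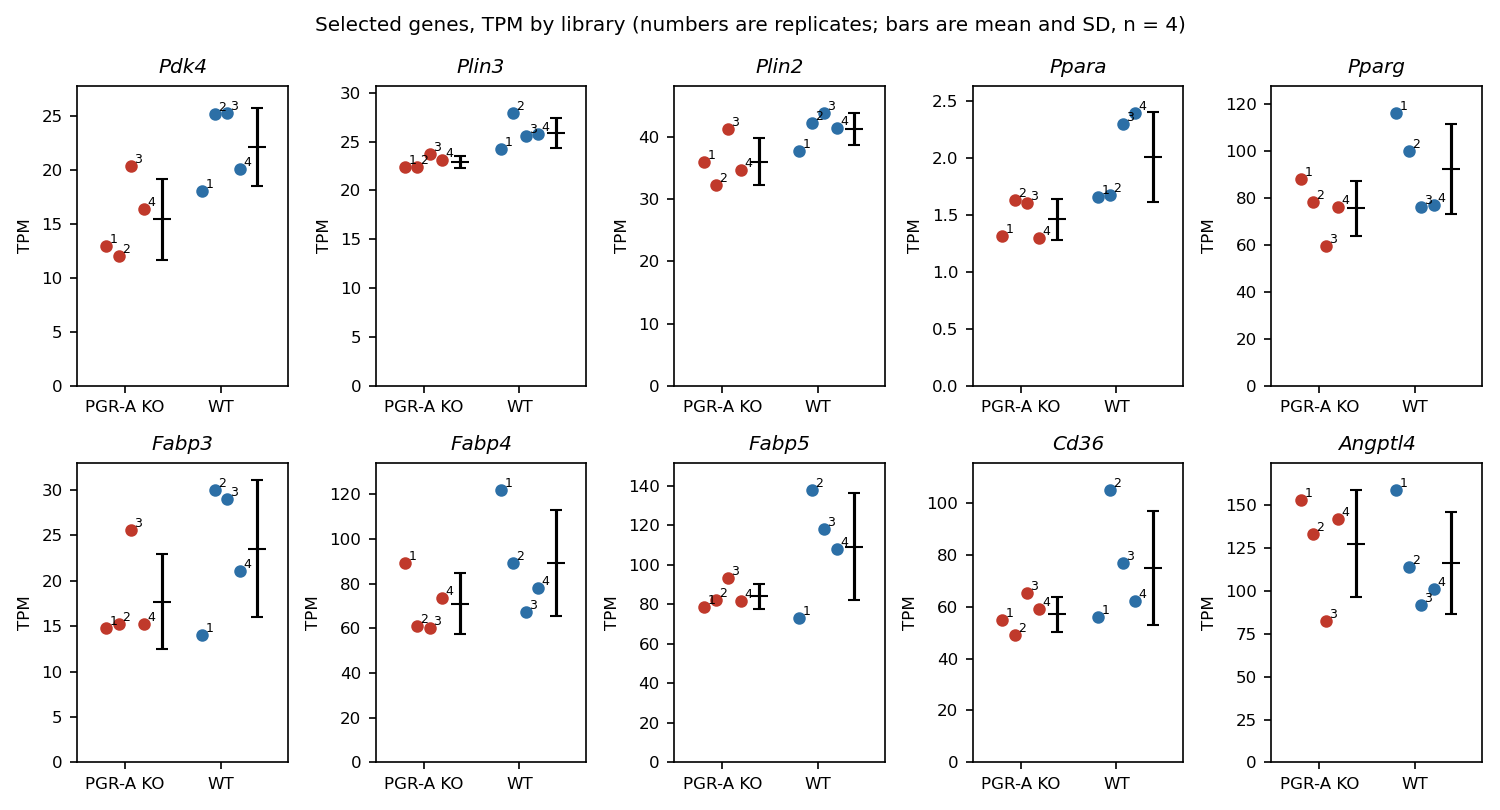
TPM in each library for 10 of the 36 genes, with PGR-A KO left of WT, replicate numbers beside the points and bars for mean and SD (n = 4). Plin3 and Ppara do not overlap between genotypes in TPM as deposited (Plin3 does after each of 3 rescalings and Ppara after 1), and in Pdk4 KO replicate 3, at 20.4 TPM, lies above WT replicates 1 and 4, at 18.1 and 20.1 TPM.

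Genes of the oxidation path itself were abundant, and each overlapped between genotypes. Cpt1a, the gatekeeper that passes fatty acids to the mitochondrion, had 121, 118, 86.8 and 106 TPM in KO and 112, 87.2, 93.4 and 83.8 TPM in WT. KO replicate 3 was the lowest KO library and WT replicate 1 the highest WT library, and the difference was 0.19 (SE 0.13, limma adjusted p = 0.834). Cpt2, its partner on the inner membrane, averaged 31.1 ± 2.83 TPM in KO and 32.7 ± 3.82 TPM in WT (SD, n = 4 each).

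The acyl-CoA dehydrogenases carry out the first step of each oxidation cycle for chains of different length. Acadm, for medium chains, averaged 93.7 ± 15.5 TPM in KO and 108 ± 19.0 TPM in WT (SD, n = 4 each). Its lowest library was KO replicate 3 (71.7 TPM) and its highest WT replicate 1 (133 TPM). Acadl and Acadvl, for longer chains, varied less, at 69.6 ± 4.16 and 56.4 ± 5.89 TPM in KO and at 72.5 ± 5.70 and 56.4 ± 3.01 TPM in WT (SD, n = 4 each). The 95% interval of the difference was -0.23 to 0.12 for Acadl and -0.20 to 0.19 for Acadvl.

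Hadha and Hadhb encode the alpha and beta subunits of the trifunctional protein, which completes the cycle for long chains, and were among the steadiest of the 36 genes. Hadha had 153, 163, 137 and 151 TPM in KO and 162, 153, 159 and 147 TPM in WT. Hadhb had 99.7, 95.8, 92.2 and 96.9 TPM in KO and 94.0, 96.7, 92.6 and 89.2 TPM in WT. The highest library held 1.19 times the lowest for Hadha and 1.12 times for Hadhb. The ratio of Hadha to Hadhb within a library was 1.57 ± 0.095 in KO and 1.67 ± 0.067 in WT (SD, n = 4 each). The median residual SD on the log2 scale was 0.131 for the 8 genes of oxidation and fuel choice, 0.236 for the 35 genes and 0.165 for all tested genes.

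A wider set of oxidation genes, listed with earlier results of these data known, leaned to lower means in KO. Of 29 tested genes, 28 had lower and 1 higher means in KO, against 57.4% lower among all genes, with a median difference of -0.12, and 0 passed over all genes. This count depended in part on scaling, as did the share over all genes. With trimmed-mean factors 22 of 29 were lower (46% of all genes), and with quantile normalization 21 (45.6% of all genes). Without mitochondrially encoded genes in the total 24 were lower (50.1% of all genes). With KO replicate 3 and WT replicate 1 left out, 25 of 29 were lower. Mitochondrially encoded genes made up 21.0 to 26.5% of TPM in KO libraries and 20.9 to 24.4% in WT libraries.

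Acaa1a, a peroxisomal thiolase of the last oxidation step, had the lowest p of these, with 51.3, 48.6, 42.9 and 48.4 TPM in KO and 56.1, 59.4, 52.0 and 53.2 TPM in WT. Its groups did not overlap in TPM as deposited, as in 3.42% of all genes, and they overlapped with trimmed-mean factors. The difference was -0.20 (SE 0.08, unadjusted limma p = 0.0249, adjusted p = 0.783, exact permutation p = 0.0286). Ucp2, a mitochondrial inner membrane carrier, was the most abundant, at 601 ± 54.2 TPM in KO and 666 ± 66.5 TPM in WT (SD, n = 4 each). Echs1, the hydratase of the cycle, averaged 102 ± 6.41 TPM in KO and 111 ± 4.71 TPM in WT (SD, n = 4 each).

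Genes of synthesis and desaturation did not differ between genotypes beyond their spread. Fasn, the fatty acid synthase, had 63.6, 73.3, 42.5 and 57.0 TPM in KO and 80.5, 56.6, 54.7 and 57.0 TPM in WT. Acaca, the carboxylase that supplies it with malonyl-CoA, averaged 25.6 ± 4.89 TPM in KO and 27.8 ± 5.52 TPM in WT (SD, n = 4 each). In both genes KO replicate 3 was the lowest library and WT replicate 1 the highest.

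Scd1 and Scd2 make monounsaturated from saturated fatty acids, and Scd2 was the most abundant of the 36 genes. Scd1 had 99.7, 99.4, 40.9 and 84.0 TPM in KO and 133, 75.4, 61.4 and 62.8 TPM in WT. Scd2 had 702, 873, 506 and 616 TPM in KO and 785, 590, 659 and 630 TPM in WT. KO replicate 3 was lowest for both; the highest library was WT replicate 1 for Scd1 and KO replicate 2 for Scd2. Scd1 had a difference of -0.04 (95% interval -0.78 to 0.69), which became 0.50 with those 2 libraries left out. The share of Scd2 in the pair was 89.5% ± 2.25 in KO and 89.2% ± 2.70 in WT (SD, n = 4 each). Transcripts of Scd1 and Scd2 match over 623 bases at 95.5% identity, so the split of reads between them is less certain than their sum.

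**Figure D4:**
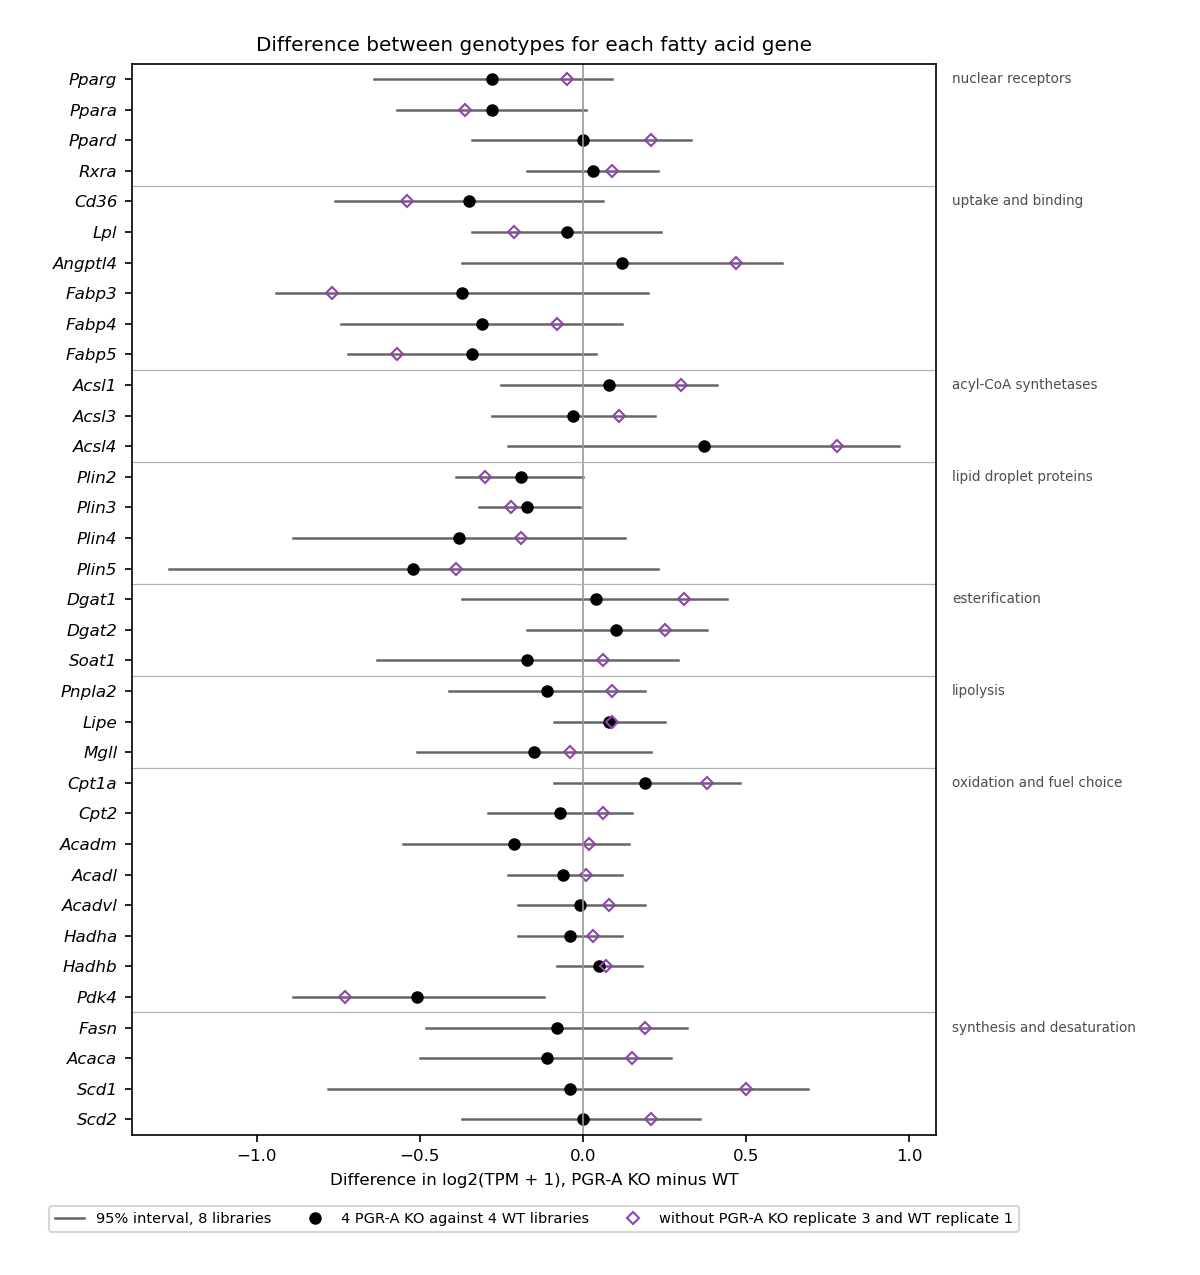
Difference between genotypes in log2(TPM + 1), PGR-A KO minus WT, for the 35 tested genes with its 95% interval (black), and the same difference in the 6 libraries other than KO replicate 3 and WT replicate 1 (open diamonds). With 8 libraries the intervals of Pdk4 (-0.89 to -0.12) and Plin3 (-0.32 to -0.01) leave out 0, and those of the other 33 genes do not.

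Of 114 further genes of the same pathways, 89 were tested, of which 24 had higher and 65 lower means in KO, with a median difference of -0.063 and 0 past the adjusted threshold. At an unadjusted p under 0.05 there were 6, all lower in KO (5.33% of all genes were lower at that level). Elovl2, an elongase of long polyunsaturated fatty acids, was among them, with 6.41 ± 0.781 TPM in KO and 8.74 ± 1.15 TPM in WT (SD, n = 4 each; unadjusted limma p = 0.00873, adjusted p = 0.721, exact permutation p = 0.0571).

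The abundant genes of this wider set overlapped between genotypes, and 1 of them, Elovl5, had an unadjusted p under 0.05. Me1, which supplies NADPH for synthesis, averaged 547 ± 115 TPM in KO and 485 ± 103 TPM in WT (SD, n = 4 each). Acly, which supplies cytosolic acetyl-CoA, averaged 260 ± 65.6 TPM in KO and 223 ± 58.6 TPM in WT (SD, n = 4 each). Acsbg1, a further acyl-CoA synthetase, averaged 407 ± 57.0 TPM in KO and 410 ± 59.8 TPM in WT (SD, n = 4 each). Each of these was lowest in KO replicate 3.

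Dbi, which binds acyl-CoA, averaged 380 ± 46.8 TPM in KO and 431 ± 72.5 TPM in WT (SD, n = 4 each). Gpam, the first enzyme of glycerolipid synthesis, averaged 116 ± 19.1 TPM in KO and 128 ± 26.3 TPM in WT (SD, n = 4 each). The desaturase Fads1 averaged 104 ± 20.8 TPM in KO and 100 ± 12.1 TPM in WT, and the elongase Elovl5 169 ± 23.0 TPM in KO and 201 ± 17.7 TPM in WT (SD, n = 4 each). The difference for Elovl5 was -0.26 (95% interval -0.50 to -0.02; limma p = 0.0347, adjusted p = 0.783, exact permutation p = 0.114).

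Within each genotype, single libraries stood at the low or the high end for many of the fatty acid genes. KO replicate 3 was the lowest library for 20 of the 35 genes (57.1%, against 24.7% of all tested genes), and WT replicate 1 was the highest for 13 (37.1%, against 18.3%). WT replicate 2 was the highest for 9 genes (25.7%, against 15.7%). KO replicate 3 was the highest library for 0 of the 35 genes. Genes lowest in KO replicate 3 came from every role and include Pparg, Ppard, Fabp4, Angptl4, Plin4, Plin5, Soat1, Fasn, Scd1 and Acadm. Fabp3, Fabp5, Cd36, Lpl, Plin2, Plin3 and Pdk4 had the opposite order within KO, with replicate 3 the highest KO library.

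**Figure D5:**
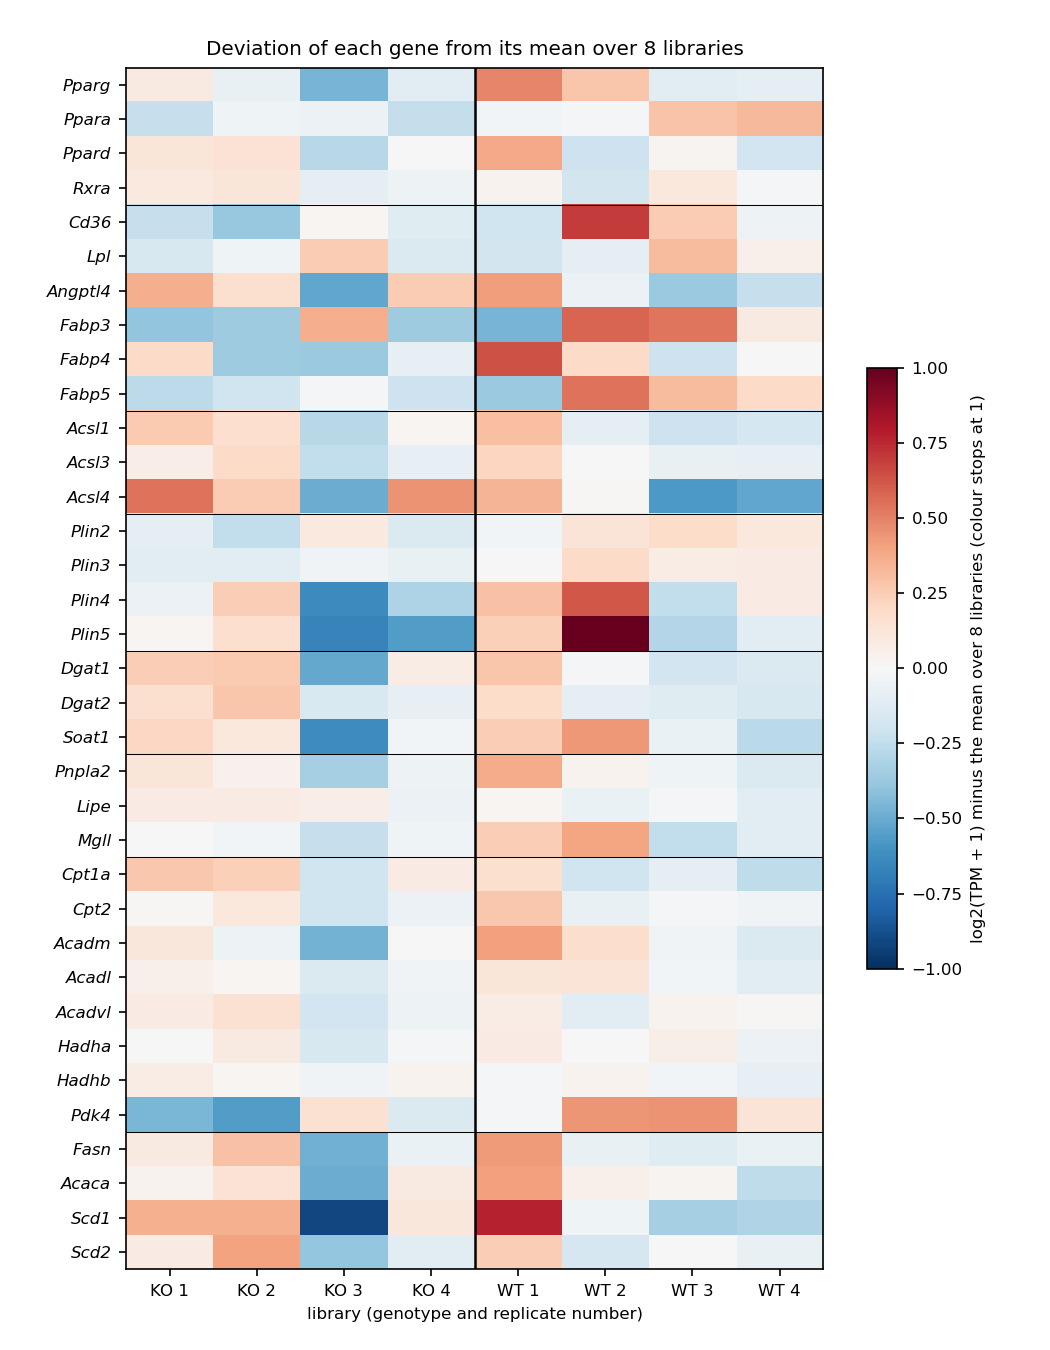
Deviation of log2(TPM + 1) from its mean over the 8 libraries for the 35 tested genes, with PGR-A KO libraries left and WT libraries right of the line; red is above and blue below the mean, and the colour stops at 1. The KO replicate 3 column is blue in most rows, as the lowest library of 20 genes, and the WT replicate 1 column is red in most, as the highest of 13.

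With PGR-A KO replicate 3 and with WT replicate 1 left out, 8 of the 35 genes passed an adjusted limma p of 0.05, against 8.01% of 14114 genes tested in these 6 libraries. Angptl4, Acsl4, Cpt1a and Scd1 were higher in KO there, and Fabp3, Fabp5, Plin2 and Pdk4 lower. Groups did not overlap in 15 of the 35 genes there, against 31.2% of all genes. The choice of those libraries rests on their position beside the opposite genotype, so the count describes the 6 libraries and does not measure an effect of genotype.

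Reads of some genes can be shared with copies or overlapping genes. Processed pseudogenes match Acaca (Gm5182, 6118 bases at 99.2%), Fabp3 (Fabp3-ps1, 402 bases at 99.3%) and Fabp5 (Gm6166, 409 bases at 98.3%). Hadhb matches Gm13910 (1428 bases at 99.8%), a symbol with no level listed in these data. It also matches Gm9108 (1426 bases at 97.6%), at 0.031 TPM in KO and 0.0243 TPM in WT. The ratio of Hadha to Hadhb is therefore less certain. The other pseudogenes were low beside the genes: Gm5182 stood at 0.236 TPM in KO and 0.234 TPM in WT, Gm6166 at 0.23 TPM in KO and 0.443 TPM in WT, and Fabp3-ps1 was listed at 0. Plin3 and Soat1 hold short stretches, of up to 135 and 125 bases, that match many other transcripts at 95% identity or more. For Plin3 these include Pdxdc1 (110 bases at 95.5%), at 47.4 TPM in KO and 51.3 TPM in WT. Acadvl shares 1151 exonic bases with Dvl2 on the opposite strand, and Acsl3 shares 244 with Utp14b on the same strand. The libraries were made with a stranded kit, but no source used here says whether quantification used strand.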

How the data were processed

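Poly(A) RNA of granulosa cells was sequenced in 4 PGR-A KO and 4 WT libraries; groups and replicate numbers come from the sample titles. The authors deposited 1 table of TPM for 51886 gene symbols. Per the submitters' processing notes, FastQC, Salmon, limma, edgeR and mm10 were used, with no versions or roles; no source used here gives the annotation or how genes were summed. TPM keeps no depth, so no counting interval is given, and a 0 is reported as listed.

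The genotypes were compared on log2(TPM + 1) by limma (version 3.58.1, R version 4.3.3; intensity trend, no covariate) in 14472 genes reaching 1 TPM in 4 or more libraries. P-values are 2-sided, adjusted by Benjamini-Hochberg over all genes tested, with a threshold of 0.05. This scale understates differences of low genes. For single genes, an exact permutation test (2-sided, 70 assignments) was added. The steps were tested on simulated data.

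Members and lists were chosen with earlier results of these data known. Genes named were the 36 members, the 3 other pathway genes with the lowest p (1 is not reported here), pathway genes at 100 TPM or more, and the most abundant marker of each cell type discussed. Other lists were theca, smooth muscle, surface epithelium, oocyte and erythroid markers. Positions are from GENCODE M21 (95.2% of symbols matched); shared sequence was searched with BLASTN 2.17.0 (at least 100 bases at 95% identity). Promoters are from RefSeq.

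Alternatives were other pseudocounts (0.1 and 5), other filters (a minimum of 5 TPM, and none), trimmed-mean (TMM) or quantile scaling, a total without mitochondrially encoded genes, robust or untrended limma, a replicate block and each library left out. The fit of 6 libraries was chosen after seeing the data.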

Additional observations from a re-analysis of the deposited data

Results flagged for a closer look

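In 5 of 70 groups (35 genes, 2 genotypes) the highest or lowest library stood apart from the remaining 3, and chance gives about 3.5. Fabp3 was high in PGR-A KO replicate 3, at 25.6 TPM against 15.2 TPM in the nearest KO library. Lipe was low in PGR-A KO replicate 4, at 9.79 TPM against 10.8 TPM. WT replicate 1 stood above the other WT libraries in Fasn (80.5 TPM against 57.0 TPM), Dgat2 (16.5 TPM against 13.4 TPM) and Cpt2 (38.4 TPM against 31.5 TPM).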

How the results depend on the processing

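The fit of 6 libraries (PGR-A KO replicate 3 left out, and WT replicate 1 too) was added after seeing the data. Genes past the adjusted threshold numbered 0 in each of 18 alternatives. These tested 36 genes with no filter, 31 with a minimum of 5 TPM and 35 in the others. With 6 libraries 8 of 35 passed, against 8.01% of all genes. Genes at an unadjusted limma p under 0.05 were 2 in the main fit (6.31% of all genes), 1 with TMM factors (5.87%) and 1 without mitochondrially encoded genes (6.15%). They were 7 with the replicate block (9.45% of all genes) and 14 with 6 libraries (25.1%). With 1 library left out they ran from 1 to 8. There were 8 without WT replicate 1 (12.8% of all genes) and 6 without PGR-A KO replicate 3 (10.7%). Genes whose groups did not overlap were 2 in the main fit (3.42% of all genes). There was 1 with a minimum of 5 TPM (Plin3, with Ppara not tested, against 3.37% of all genes). Without mitochondrially encoded genes there was also 1 (Lipe, higher in KO, against 3.72% of all genes). There were 15 with 6 libraries (31.2% of all genes). With a library left out there were 2 to 4, and the share of all genes then ran from 4.38% to 11%. Over all genes, the split of those at an unadjusted p under 0.05 was 141 higher and 772 lower in KO, and 352 higher and 497 lower with TMM factors. Correlations between the deviations of same-numbered KO and WT libraries were mixed (0.36, -0.11, 0.39 and -0.29 for replicates 1 to 4). KO replicate 3 had a higher one with WT replicate 4 (0.43). The labels give no batch, so the replicate block rests on a number alone.

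The sign of the difference held for 19 of 35 genes in every alternative that tested them (15 genes in 19 alternatives; Ppara, Mgll, Plin4 and Plin5 in 18, since they fall below the minimum of 5 TPM). It reversed with TMM factors for Ppard (0.036), Acsl3 (0.007), Acadvl (0.034), Hadha (0.002) and Scd2 (0.038), with quantile normalization for Ppard (0.038), Acadvl (0.022) and Scd2 (0.034), and without mitochondrially encoded genes for Ppard (0.021), Acadvl (0.019) and Scd2 (0.023). With 6 libraries it reversed for Ppard (0.214), Acsl3 (0.109), Soat1 (0.061), Pnpla2 (0.089), Cpt2 (0.061), Acadm (0.019), Acadl (0.012), Acadvl (0.08), Hadha (0.027), Fasn (0.194), Acaca (0.149), Scd1 (0.5) and Scd2 (0.208). With 1 library left out it reversed in at least 1 fit for Ppard (-0.069 to 0.122), Rxra (-0.02 to 0.074), Lpl (-0.14 to 0.05), Acsl3 (-0.103 to 0.044), Dgat1 (-0.047 to 0.212), Soat1 (-0.292 to 0.009), Cpt2 (-0.118 to 0.006), Acadvl (-0.057 to 0.056), Hadha (-0.077 to 0.007), Fasn (-0.192 to 0.066), Acaca (-0.217 to 0.032), Scd1 (-0.17 to 0.252) and Scd2 (-0.136 to 0.127), the range over such fits in brackets. The cause was not tested. TPM gives no depth, so precision at low levels (Ppara, Mgll, Plin5) is unknown.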
